A study of Mus musculus with 19 samples.

Results

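Ion channel subunit genes were examined as a family in mouse cells carrying the FLT3 internal tandem duplication (FLT3-ITD) and in their controls. The members are all gene symbols of the deposited count table that begin with Kcn, a lower-case letter and later a digit (potassium channels), with Cacna, Cacnb or Cacng (calcium channels), or with Scn and a digit (sodium channels). These are 134 of 23458 gene symbols: 94 potassium, 26 calcium and 14 sodium symbols. One of the potassium symbols, Kcnq1ot1, is a noncoding RNA, so 133 members are channel subunit genes.

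Voltage-gated channels open when the membrane potential shifts and pass potassium, calcium or sodium through a pore-forming alpha subunit, while beta, gamma, alpha2delta and other auxiliary subunits change the pore's trafficking and gating. In T cells, potassium efflux through Kv1.3 (Kcna3) and the calcium-activated channel KCa3.1 (Kcnn4) keeps the membrane negative and so sustains calcium entry through store-operated ORAI channels, which feeds calcineurin and NFAT. Most other members are best known from neurons, heart and muscle.

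The series measured polyadenylated RNA of C57BL/6 mice in 17 libraries that fall into 7 groups. In the retroviral model, marrow from Mx1-cre+ donors was transduced and transplanted into irradiated recipients, and donor-derived CD4+CD8+ cells (immature T cells that carry both coreceptors, called double-positive) were sorted. Its groups are Dnmt3a+/+ thymocytes with the MSCV_GFP vector alone (WT-GFP, n = 2), Dnmt3af/f thymocytes with the same vector (KO-GFP, n = 2), and leukemias carrying MSCV_FLT3-ITD-GFP with Dnmt3a+/+ (WT-ITD, n = 3) or Dnmt3af/f (KO-ITD, n = 4). Dnmt3a encodes a DNA methyltransferase that adds methyl groups at CG dinucleotides, f marks the floxed allele that Cre recombinase can delete, and the viral promoter of the vector drives the transgene. The knock-in groups are unsorted marrow of Flt3+/ITD mice: pre-leukemic Dnmt3af/f marrow without ER-cre (n = 3), and leukemias with ER-cre and 1 floxed (Dnmt3a f/+, n = 2) or 2 floxed Dnmt3a alleles (Dnmt3a f/f, n = 1). All GFP libraries, 2 WT-ITD leukemias (replicates 1 and 3) and 2 KO-ITD leukemias (replicates 3 and 4) were taken from thymus, and the other retroviral leukemias from marrow. All KO-ITD donor marrow had been selected on Sca-1 and all KO-GFP donor marrow on ckit, so this step and the transgene cannot be told apart in that comparison. For WT-ITD, donor marrow was selected on Sca-1 in replicate 1 and on ckit in replicate 2, and was whole marrow in replicate 3. The selection is not given for WT-GFP. The donor step thus also varies within WT-ITD and between WT-ITD and KO-ITD. The ages of the animals are not given, and the labels call replicates biological without tying each to an animal, so each p-value speaks only of variation among the samples at hand.

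Total counts ranged from 4933890 to 25331908 per library. No replicate pair agreed within sampling noise (the smallest chi-square divided by its degrees of freedom was 8.40). Dnmt3a itself was at 250.1 to 257 CPM (counts of the gene scaled to 1000000 counts in the library) in WT-GFP, 144 to 207 in KO-GFP, 180.2 to 238 in WT-ITD and 53.0 to 127 in KO-ITD, and at 130 to 153 in pre-leukemic marrow, 47.4 to 55.0 in Dnmt3a f/+ and 36.5 in Dnmt3a f/f; exons outside the deleted part are counted too. All 8 double-positive T markers examined (Cd4, Cd8a, Rag1 and others) were detected in every retroviral library, summing to 11542 to 13018 CPM in the GFP groups, 5599 to 9816 in WT-ITD, 1858 to 7429 in KO-ITD and 6.87 to 279 in the knock-in groups. Granulocyte and monocyte markers summed to 2286 to 10929 CPM in the knock-in libraries and to at most 748 in the retroviral ones. In such bulk libraries, fewer cells of a type and less RNA per cell cannot be told apart. Markers of stroma (8 genes, mainly collagens and matrix proteins) summed to 6.69 to 9.08 CPM in the GFP libraries, 3.98 to 133 in WT-ITD and 137 to 2794 in KO-ITD, with 0 of 8 at zero in any KO-ITD library; KO-ITD replicate 4 was the highest.

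Promoter sequences are shown for 4 members whose RNA differed between leukemias and thymocytes, because Dnmt3a acts on CG dinucleotides; DNA methylation was not analysed here. Each runs from 250 bases before to 50 bases after the RefSeq start of the gene (build GRCm38.p6), read 5′ to 3′ along the gene's strand, with every CG in capitals. Cacna1e (chr1:154725871-154726170, minus strand) and Kcnj8 (chr6:142571565-142571864, minus strand) hold 11 and 9 CG dinucleotides, whereas Kcna3 (chr3:107035912-107036211, plus strand) and its neighbour Kcna2 (chr3:107101317-107101616, plus strand) hold 37 and 31.
Cacna1e: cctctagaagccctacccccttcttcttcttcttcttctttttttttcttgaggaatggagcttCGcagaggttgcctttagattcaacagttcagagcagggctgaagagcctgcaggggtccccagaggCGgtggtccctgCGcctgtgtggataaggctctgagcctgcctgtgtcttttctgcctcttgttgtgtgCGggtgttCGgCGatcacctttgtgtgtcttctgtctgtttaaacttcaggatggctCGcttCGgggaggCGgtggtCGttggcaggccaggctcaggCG
Kcnj8: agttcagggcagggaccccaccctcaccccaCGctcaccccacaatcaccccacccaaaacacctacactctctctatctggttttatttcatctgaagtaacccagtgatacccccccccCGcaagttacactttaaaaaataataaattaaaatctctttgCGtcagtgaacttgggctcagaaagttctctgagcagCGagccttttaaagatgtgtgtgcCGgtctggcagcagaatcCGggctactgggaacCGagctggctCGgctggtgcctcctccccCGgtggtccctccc
Kcna3: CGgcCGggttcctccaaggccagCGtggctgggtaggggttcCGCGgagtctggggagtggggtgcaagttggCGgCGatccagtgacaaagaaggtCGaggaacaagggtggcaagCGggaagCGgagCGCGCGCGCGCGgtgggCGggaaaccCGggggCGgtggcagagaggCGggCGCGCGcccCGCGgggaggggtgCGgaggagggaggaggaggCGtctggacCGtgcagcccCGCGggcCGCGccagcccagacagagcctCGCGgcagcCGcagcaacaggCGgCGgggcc
Kcna2: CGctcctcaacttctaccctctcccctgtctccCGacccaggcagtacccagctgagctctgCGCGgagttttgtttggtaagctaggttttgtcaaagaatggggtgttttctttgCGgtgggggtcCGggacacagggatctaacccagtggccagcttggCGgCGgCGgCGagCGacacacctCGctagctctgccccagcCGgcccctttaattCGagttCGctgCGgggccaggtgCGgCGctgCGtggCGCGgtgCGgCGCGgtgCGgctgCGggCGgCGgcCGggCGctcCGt
Across the promoter table the median was 7 CG over 27025 promoters of all genes. Promoters were found for 98 of 134 members, counting the first start of each gene, and their median was 10. Members expressed in at least 1 group had a median of 13 (43 promoters) and those expressed in no group 9 (55 promoters). The TATA motif TATAAA, searched on both strands, was present in 4.08% of the member promoters and in 14.2% of all promoters. The E-box CANNTG, which reads the same on both strands and can overlap other motifs, was present in 71.4% and 72.1%. Of the 4 promoters shown, those of Kcnj8 and Kcna2 held an E-box and none held TATAAA. No entry was found for Cacng4.

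Most channel genes were not expressed in these cells, and which ones were differed between the T-lineage and the marrow groups. With a mean of at least 1 CPM counted as expressed, 31 of 134 members were expressed in WT-GFP, 30 in KO-GFP, 30 in WT-ITD, 40 in KO-ITD, 34 in pre-leukemic marrow, 26 in Dnmt3a f/+ and 28 in Dnmt3a f/f. The same threshold was met by 48.8% to 53.9% of all genes of the table in the 7 groups. Potassium members made up 18, 16, 17, 22, 24, 19 and 22 of these counts in the same order, out of 94. Calcium members made up 10 in each of the 4 retroviral groups, 9 in pre-leukemic marrow, 6 in Dnmt3a f/+ and 5 in Dnmt3a f/f, out of 26. Of 14 sodium members, 3 were expressed in WT-GFP, 4 in KO-GFP, 3 in WT-ITD and 8 in KO-ITD, but 1 in each knock-in group. In all, 62 members were expressed in at least 1 group and 72 in none, and 8 had no count in any library, among them Kcna4 and Cacng2.

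**Figure D1:**
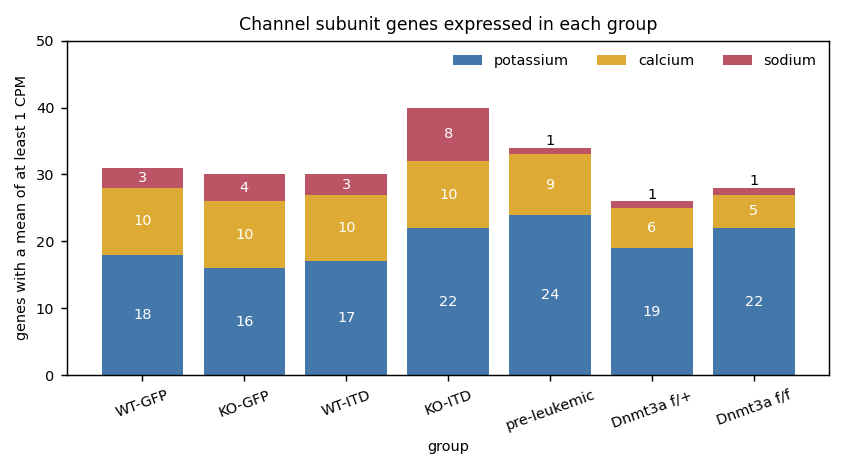
Number of members (vertical axis) with a group mean of at least 1 CPM in each of the 7 groups (horizontal axis), split by ion. The noncoding Kcnq1ot1 is counted among the potassium members in every bar. KO-ITD has the highest bar at 40 members and 8 sodium channel genes, and each knock-in group has 1 sodium channel gene.

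The surplus in KO-ITD rested in part on 1 library. Without replicate 4 the count was 36, and 7 of the 40 genes reached a mean of 1 CPM only with it (Kcne4, Kcnj15, Kcnk13, Scn3a, Scn3b, Scn4a and Scn7a, named here after their values were seen). Scn7a, a sodium channel pore-like gene, had levels of 0.64, 0.06, 0.60 and 5.46 CPM across KO-ITD replicates 1 to 4. Kcnk13, a 2-pore-domain potassium channel, was at 0.51, 0.16, 0.84 and 12.3 CPM. Replicate 4 was the highest library for both genes. It also had the highest stroma marker sum, 2794 CPM against 258, 137 and 676 in replicates 1 to 3. The same held for the sums of megakaryocyte markers (130 against 12.6, 11.4 and 6.86) and endothelial markers (262 against 99.4, 72.3 and 107). In replicate 4 the megakaryocyte sum was mostly Pf4 (98.7 CPM), and Gp9 and Ppbp were highest in replicate 2 instead. The endothelial sum of replicate 4 was mostly Lyve1 (208 CPM). Cdh5, Kdr and Tie1 were also highest there, at 7.04, 0.97 and 3.64 CPM, but Pecam1 was lowest, at 41.7 against 95.5, 70.8 and 100 CPM. Csf1r, of the granulocyte and monocyte list, was at 306 against 16.9, 7.48 and 9.14 CPM. The sum of that list was highest in another replicate, as were the erythroid, B cell, NK, neuron and glia, and muscle sums. The part of such cells in these counts was not tested.

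A core of 11 members was expressed in all 7 groups: Kcnn4, Kcnab2, Kcna3, Kcnk5, Kcnk6, Kcnq5, Kcnip3, Cacna1d, Cacna2d2, Cacnb1 and the noncoding Kcnq1ot1. Another 7 were expressed in all 4 retroviral groups and no knock-in group, among them the pore genes Cacna1c, Kcna2 and Kcnh3 and the auxiliary subunits Cacnb3, Scn2b and Scn4b. The reverse held for 4 (Cacnb2, Kcnab1, Kcnj2 and Kcnk12). Kcnab1, a Kv beta subunit, is named here because of this count. Kcnk12, a 2-pore-domain subunit, was at 5.58 to 21.4 CPM in the 6 knock-in libraries and at most 0.06 CPM in the retroviral ones. Kcnh3, an ether-a-go-go-type voltage-gated potassium channel, showed the opposite pattern, with 45.3 to 137 CPM in the retroviral libraries and no more than 0.05 CPM in knock-in marrow. The models differ in cell type and sort together, so these cannot be told apart.

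Levels of different genes were compared per kilobase of exon. Kcnn4 or Kcnab2, the beta2 auxiliary subunit of Kv1 channels, ranked first in every group. Kcnn4 was at 96.9 CPM per kilobase in WT-GFP, 89.6 in KO-GFP, 82.8 in WT-ITD, 65.0 in KO-ITD, 56.3 in pre-leukemic marrow, 38.5 in Dnmt3a f/+ and 25.9 in Dnmt3a f/f. Kcnab2 was at 40.8, 30.0, 52.0, 52.1, 46.7, 44.9 and 73.6 CPM per kilobase in the same order, and stood above Kcnn4 in both knock-in leukemia groups only. Kcna3 followed Kcnn4 in the GFP groups at 41.4 and 41.9 CPM per kilobase, and was at rank 8 in WT-ITD (17.9) and at rank 10 in KO-ITD (7.22). Among calcium channel genes Cacnb3 ranked highest in WT-GFP at 19.8 CPM per kilobase, while Cacng4 ranked highest in WT-ITD at 47.4 and in KO-ITD at 19.0. Kcnn4 ranged from 109 to 209 CPM in the retroviral libraries and passed the test in no comparison.

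**Figure D2:**
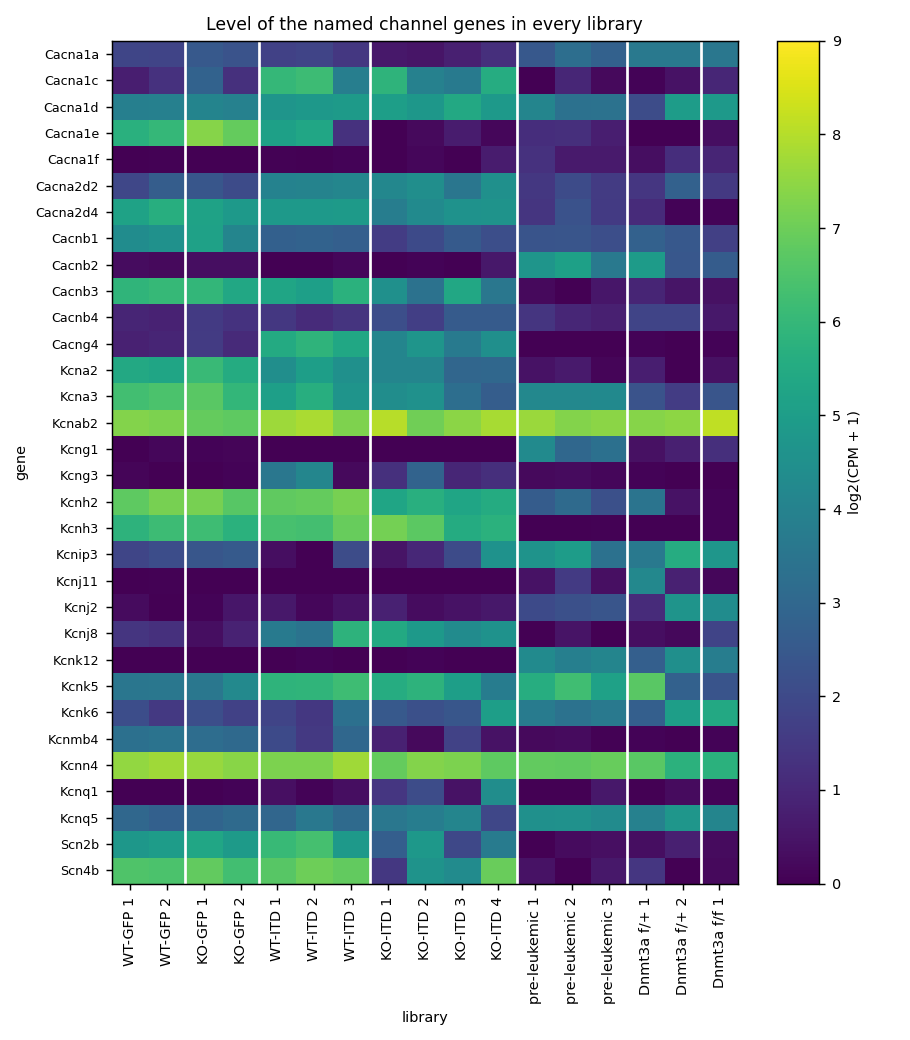
Level of 32 named members (vertical axis) in each of the 17 libraries (horizontal axis), as log2(CPM + 1) by colour, with white lines between groups. Kcnn4 and Kcnab2 are bright in every column, Kcnh3 and Scn4b are bright in retroviral libraries and dark in knock-in ones, and Kcnk12 shows the reverse.

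Differences between groups were tested with edgeR's quasi-likelihood test on all 15508 genes that passed a filter on low counts, calling an adjusted p (Benjamini-Hochberg) below 0.05. Of the members, 82 passed that filter and 52 did not. In leukemias with intact Dnmt3a against WT-GFP thymocytes, 2 members rose (Cacng4 and Cacna1c) and 1 fell (Cacnb1); of all genes tested 2.24% passed, 1.35% higher and 0.89% lower. In KO-ITD against KO-GFP, 7 members rose (among them Cacng4, Cacna2d2, Kcnj8, Kcng3, Kcnab2 and Kcnq1) and 6 fell (Cacna1e, Cacnb1, Cacna1a, Kcna3, Kcna2 and Kcnmb4). These 13 were 15.9% of the 82 tested, beside 19.6% of all genes, 9.8% higher and 9.85% lower. The median log2 fold change of the tested members was 1.14 there, and -0.01 with intact Dnmt3a, beside 0.19 and 0.03 over all genes. The 1.14 covers 54 members above 0 and 24 below, some of them near the floor in KO-GFP. Scn7a, for example, had 56 counts in KO-ITD and 0 in KO-GFP, and Kcne4 had 41 and 0. Of the 13 called, 12 changed by at least 2-fold. By ion, 5 of 18 tested calcium members, 8 of 53 potassium members and 0 of 11 sodium members passed (3 sodium members had an unadjusted p below 0.05 in edgeR). Without regard to a test, all WT-ITD libraries lay above all WT-GFP libraries for 15 tested members and below them for 19, where 20.9% and 24.9% of all genes did so. All KO-ITD libraries lay above all KO-GFP libraries for 18 members and below them for 14, where 22.9% and 21.8% of all genes did.

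Fewer members passed in the other comparisons. Between KO-ITD and WT-ITD leukemias 1 member fell, Cacna1e, where 0.49% of all genes passed (0.206% higher and 0.284% lower); the groups did not overlap for 4 members higher and 10 lower in KO-ITD, beside 4.85% and 6.24% of all genes. Between KO-GFP and WT-GFP thymocytes no member and no gene passed in edgeR (0%), with 1 member at an unadjusted p below 0.05 and 0 members passing in DESeq2 or limma voom. These groups did not overlap for 14 members higher and 12 lower in KO-GFP, beside 17.1% and 20.9% of all genes. The test of whether the leukemia difference depended on Dnmt3a also called no gene in edgeR (0%). In it, 7 of the 82 members (8.54%) and 838 of all genes (5.4%) had an unadjusted p below 0.05; 3 members and 0.345% of all genes passed in DESeq2, and no member in limma voom. In the knock-in model, 1 member fell in Dnmt3a f/+ leukemia against pre-leukemic marrow, Kcna3, where 5% of all genes passed (3.43% higher and 1.57% lower). Groups there did not overlap for 6 members higher and 16 lower, beside 22.7% and 20.9% of all genes. Leukemia, ER-cre and the number of floxed Dnmt3a alleles differ together in that comparison, so they cannot be told apart. The comparisons of leukemias with thymocytes share the KO-ITD and WT-ITD libraries with the comparison between leukemias.

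**Figure D3:**
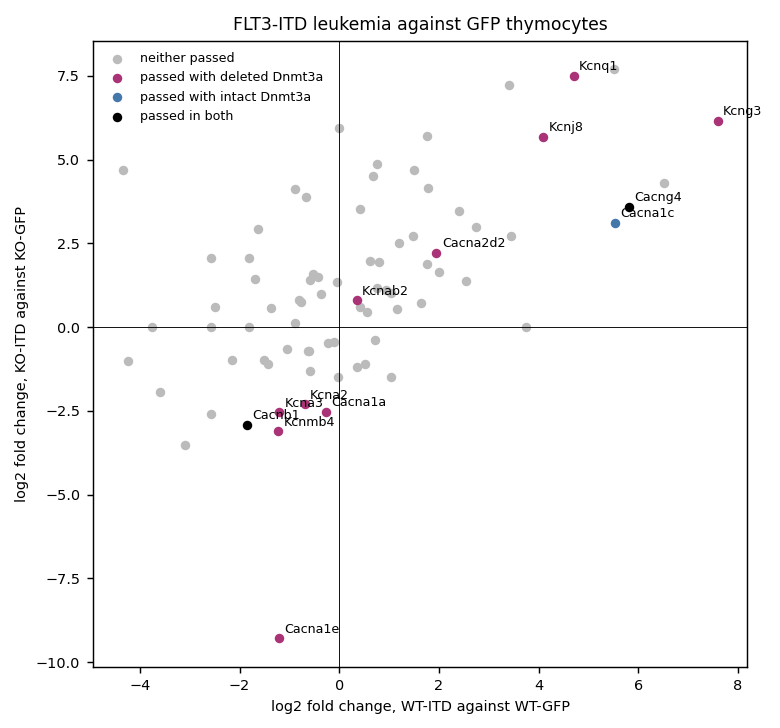
Log2 fold change of 79 tested members in WT-ITD against WT-GFP (horizontal axis) and in KO-ITD against KO-GFP (vertical axis), coloured by which test passed. Cacng4 (5.81 and 3.59) and Cacnb1 (-1.84 and -2.92) passed in both, and Cacna1e lies lowest on the vertical axis at -9.28.

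Among the calcium channel pores, Cacna1e (chromosome 1, 156239649 to 156573050, minus strand, mm9), which encodes the R-type pore Cav2.3, showed the widest range. WT-GFP had 50.9 and 63.0 CPM, with 164 and 115 in KO-GFP and 33.4, 38.7 and 1.41 in WT-ITD. KO-ITD had 0, 0.16, 0.60 and 0.12 CPM, and the knock-in libraries at most 1.32. All 4 KO-ITD libraries lay below every other retroviral library, and WT-ITD replicate 3 lay between them and the other WT-ITD leukemias. The log2 fold change was -9.28 ± 1.11 (SE) in KO-ITD against KO-GFP (edgeR adjusted p = 0.000686) and -6.78 ± 1.02 against WT-ITD (edgeR adjusted p = 0.0148). WT-ITD against WT-GFP gave -1.21 ± 0.89 (edgeR adjusted p = 0.514), and the difference between the leukemia effects, -8.07 ± 1.53, had an edgeR adjusted p of 0.299. The call against WT-ITD was lost in 7 of 15 alternatives, among them leaving out WT-ITD replicate 1 (edgeR adjusted p = 0.0588) or replicate 2 (0.0703), the replicate block (0.0737) and limma voom (0.101), and it reached an edgeR adjusted p of 0.252 when only the groups compared were fitted. The Cacna1e promoter with 11 CG is the first shown above.

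Cacna1c (chromosome 6, 118542314 to 119146427, minus strand), the L-type pore Cav1.2 of heart and smooth muscle, moved the other way. WT-GFP had 0.68 and 1.42 CPM against 62.4, 70.8 and 13.4 in WT-ITD. KO-GFP had 6.07 and 1.37 CPM, and KO-ITD had 56.4, 14.5, 11.9 and 46.2. Every leukemia lay above every GFP library, and knock-in libraries were at most 0.97 CPM. The rise was 5.53 ± 1.26 (SE, log2) with intact Dnmt3a (edgeR adjusted p = 0.0398; 0.0905 to 0.339 without either WT-GFP library or WT-ITD replicate 1 or 2), and the difference was 3.12 ± 1.08 with deleted Dnmt3a (edgeR adjusted p = 0.0581). The stroma sums beside these values were 25.9, 3.98 and 133 CPM in WT-ITD and 258, 137, 676 and 2794 in KO-ITD; their part in the Cacna1c level was not tested. Cacna1a, the P/Q-type pore, was at 4.73 and 3.90 CPM in KO-GFP and 0.51, 0.44, 0.72 and 1.33 in KO-ITD, so the groups did not overlap. It fell there by 2.53 on the log2 scale (SE 0.48, edgeR adjusted p = 0.00574; 0.0861 without KO-GFP replicate 1), while its highest levels, 10.7 to 11.6 CPM, were in the knock-in leukemias. Cacna1d, the Cav1.3 pore, was expressed throughout, between 3.27 CPM in Dnmt3a f/+ replicate 1 and 42.6 in KO-ITD replicate 3; 528 of its exon bases overlap Chdh on the opposite strand, and whether counting used strand is not given. Cacna1f, the Cav1.4 pore, was at most 1.42 CPM in any library.

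Of the auxiliary calcium channel subunits, Cacng4 (chromosome 11, 107596094 to 107655778, minus strand) rose in both comparisons. It is a gamma subunit, also known as a regulatory partner of AMPA glutamate receptors. WT-GFP had 0.76 and 0.89 CPM against 43.9, 56.3 and 39.7 in WT-ITD. KO-GFP had 1.98 and 1.11 CPM and KO-ITD 16.3, 25, 12.2 and 21.4. Leukemias and thymocytes did not overlap, and all KO-ITD libraries lay below all WT-ITD libraries. The log2 rise was 5.81 ± 0.61 with intact (edgeR adjusted p = 0.00131) and 3.59 ± 0.54 with deleted Dnmt3a (edgeR adjusted p = 0.00293). The difference between the leukemias, -1.32 ± 0.38, did not pass (edgeR adjusted p = 0.135). Of the 6 neuron and glia markers, Tubb3, a neuronal tubulin, made up most of the summed level: it was at 2.75 to 6.94 CPM in the GFP groups, 27.3 to 39.8 in WT-ITD and 26.8 to 150 in KO-ITD. Between 1 and 4 of the 6 were at 0 in each WT-ITD library, and their part in the Cacng4 level was not tested.

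Cacnb1, a beta subunit that carries pores to the membrane, fell in both comparisons. WT-GFP had 19.7 and 22.2 CPM against 5.71, 6.13 and 5.65 in WT-ITD, and KO-GFP had 34.6 and 16.3 against 2.04, 3.08, 4.81 and 3.52 in KO-ITD. No leukemia reached any thymocyte library. It fell by 1.84 on the log2 scale (SE 0.41, edgeR adjusted p = 0.0365) and by 2.92 (SE 0.38, edgeR adjusted p = 0.000899); the first call was lost when any 1 of the 5 libraries was left out (adjusted p up to 0.308), the second was not lost. Its relative Cacnb3 was at 41.4 to 65.1 CPM in the GFP libraries and at 22.1, 9.51, 41.4 and 10.9 in KO-ITD (-1.29 ± 0.56, edgeR adjusted p = 0.11 against KO-GFP). Cacnb2 was at most 0.49 CPM in retroviral libraries and 4.44 to 33.6 in knock-in ones. Cacnb4 stayed between 0.48 and 5.05 CPM. Cacna2d2, an alpha2delta subunit, rose from 4.34 and 3.14 CPM in KO-GFP to 16.9, 20.6, 10.5 and 22.0 in KO-ITD (2.22 ± 0.56, edgeR adjusted p = 0.0175; 0.159 and 0.13 without KO-GFP replicate 1 or 2). With intact Dnmt3a it was at 2.80 and 5.23 against 14.8, 15.4 and 16.4 CPM (1.95 ± 0.57, edgeR adjusted p = 0.0957). Its relative Cacna2d4 was at 13.1 to 49.5 CPM in every retroviral library and no higher than 3.77 CPM in knock-in marrow, and passed in no comparison.

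**Figure D4:**
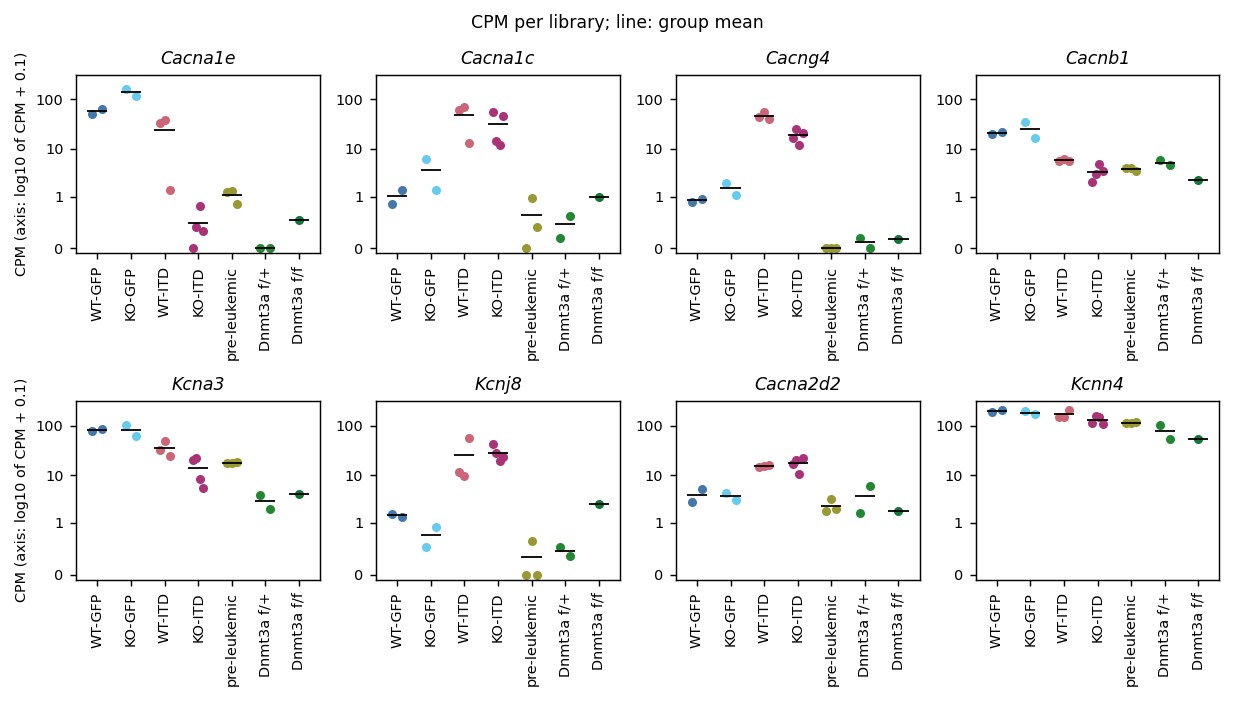
CPM of 8 members per library (points, vertical axis on a log scale of CPM + 0.1) and group mean (line) in the 7 groups (horizontal axis). Cacna1e is near 0 in all 4 KO-ITD libraries, Cacng4 and Kcnj8 lie higher in every retroviral leukemia than in any GFP library, and Kcnn4 lies between 52.8 and 209 CPM throughout.

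Both Kv1-type potassium channel pores that were expressed fell in KO-ITD leukemia. Kcna3 (chromosome 3, 106839080 to 106841047, plus strand), the Kv1.3 pore of T cells, was at 103 and 61.8 CPM in KO-GFP and 20.4, 22.7, 8.42 and 5.34 in KO-ITD. In WT-GFP it was at 76.8 and 86.0 CPM and in WT-ITD at 32.6, 48.8 and 24.3. All 7 leukemias lay below all 4 GFP libraries. It fell by 2.53 on the log2 scale with deleted Dnmt3a (SE 0.48, edgeR adjusted p = 0.00604; 0.114 without KO-GFP replicate 1), and gave -1.21 ± 0.52 with intact Dnmt3a (edgeR adjusted p = 0.244). The double-positive T marker sum was lower in KO-ITD as well, at 5402, 7429, 1858 and 3154 CPM in replicates 1 to 4 against 11553 to 13018 in KO-GFP. Of the 8 markers, 7 had a negative log2 fold change there and 1 a positive one. In edgeR 3 passed as lower and 1 as higher, beside 9.85% and 9.8% of all genes. Ptcra stood at 44.5 and 57.7 CPM in KO-GFP and at 757, 497, 33.8 and 383 in KO-ITD. The part of T cells in the Kcna3 level was not tested. Kcna2, the Kv1.2 pore, lies 63.4 kilobases from it on mm9. It was at 67.7 and 45.3 CPM in KO-GFP and 15.9, 16.2, 6.86 and 7.04 in KO-ITD, again without overlap. It fell by 2.29 (SE 0.67, edgeR adjusted p = 0.0314; 0.0592 to 0.263 without either KO-GFP library or KO-ITD replicate 3). The next neighbour, Kcna10, was expressed in no group. Both shown promoters of this pair are rich in CG, with 37 and 31.

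Other voltage-gated pores went in several directions. Kcnh2, the hERG channel, was at 101 and 140.4 CPM in KO-GFP and 38.6, 50.2, 38.4 and 45.3 in KO-ITD, below all 3 WT-ITD libraries at 110.3, 116 and 139.8. Neither difference passed (-1.48 ± 0.64 with edgeR adjusted p = 0.109 against KO-GFP, and -1.50 ± 0.58 with 0.193 against WT-ITD). Kcng3, a silent subunit that modifies Kv2 channels, was at 0 and 0.05 CPM in KO-GFP and 1.40, 6.32, 0.96 and 1.33 in KO-ITD. With 145 counts against 1, the ratio of CPM was 120.5 with a 95% counting interval of 21.3 to 4790 (edgeR adjusted p = 0.0382; 0.0501 to 0.278 without either KO-GFP library or KO-ITD replicate 2). In WT-ITD it was at 10.9, 16.7 and 0.18 CPM, so replicate 3 resembled the thymocytes, at 0.08 and 0 CPM in WT-GFP. Kcnq1, the Kv7.1 pore of heart and epithelia, had 1.65, 3.30, 0.36 and 20.5 CPM in KO-ITD against 0 and 0.05 in KO-GFP. Its ratio was 204 (counting interval 36.2 to 8072, edgeR adjusted p = 0.0394). The ratio rested mostly on replicate 4, without which the edgeR adjusted p was 0.0519 (0.279 and 0.146 without KO-GFP replicate 1 or 2). Replicate 4 also had the highest stroma, megakaryocyte and endothelial sums of KO-ITD. The megakaryocyte sum there was mostly Pf4 and the endothelial sum mostly Lyve1. The part of such cells in the Kcnq1 level was not tested. Kcnq1 shares 121 exon bases with Kcnq1ot1 on the opposite strand.

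Among the remaining potassium channels, Kcnj8 (chromosome 6, 142513459 to 142519876, minus strand), the Kir6.1 pore of ATP-sensitive channels in vascular muscle and pericytes, rose in KO-ITD. KO-GFP had 0.26 and 0.81 CPM and KO-ITD 42.9, 27.5, 19.2 and 23.1, a log2 rise of 5.68 ± 1.14 (edgeR adjusted p = 0.00773; 0.139 without KO-GFP replicate 1). WT-GFP had 1.60 and 1.38 CPM and WT-ITD 11.7, 9.68 and 55.2 (4.09 ± 1.05, edgeR adjusted p = 0.0616). All leukemias lay above all thymocytes. The stroma sums beside these values were 258, 137, 676 and 2794 CPM in KO-ITD and 25.9, 3.98 and 133 in WT-ITD. Kcnj8 had the same order as the sum in WT-ITD but not in KO-ITD. The part of stroma in the Kcnj8 level was not tested. Its promoter with 9 CG is shown above. Kcnab2 rose from 118 and 109 CPM in KO-GFP to 258, 131, 171 and 228 in KO-ITD (0.80 ± 0.25, edgeR adjusted p = 0.0413; 0.0628 to 0.23 without either KO-GFP library or KO-ITD replicate 1 or 4). Kcnmb4, a beta subunit of the large-conductance BK channel, was at 8.31 and 7.34 CPM in KO-GFP and 0.76, 0.16, 2.41 and 0.36 in KO-ITD, a fall of 3.10 (SE 0.88, edgeR adjusted p = 0.0287; 0.0602 to 0.193 without either KO-GFP library or KO-ITD replicate 1). The BK pore gene Kcnma1 was expressed in no group, and 286 Kcnmb4 exon bases overlap 1700058G18Rik on the opposite strand. Kcnk5, the acid-sensitive 2-pore-domain channel TASK-2, was at 10.6 to 17.7 CPM in GFP libraries and 12.7 to 72.2 in retroviral leukemias, and passed in neither comparison (2.55 ± 0.89, edgeR adjusted p = 0.157 with intact, and 1.37 ± 0.81, edgeR adjusted p = 0.227 with deleted Dnmt3a). Kcnq5, a Kv7 pore of the M-current type, was detected throughout, at 2.79 to 16.2 CPM in retroviral and 14.6 to 25.8 CPM in knock-in libraries, and passed in no comparison. Kcnj15, an inward rectifier picked out because of its values, stood at 6.15, 8.89 and 3.74 CPM in WT-ITD against 0.08 and 0.04 in WT-GFP (ratio 104, counting interval 35.1 to 505; edgeR adjusted p = 0.0889).

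Sodium channel genes were seen mainly in the retroviral libraries, and none of the 11 tested passed in any comparison in edgeR. Scn4b, a beta subunit of voltage-gated sodium channels, was at 76.5 to 114 CPM in the GFP groups and 99.6 to 128 in WT-ITD. KO-ITD spread over 1.78, 23.4, 19.4 and 124 CPM, so that replicate 4 was above the thymocytes and the others were below them. Scn2b, its neighbour 9.0 kilobases away on chromosome 9, was at 65.4, 81.2 and 27.6 CPM in WT-ITD and 5.47, 26.8, 2.89 and 12.5 in KO-ITD, without overlap (-2.27 ± 0.65, edgeR adjusted p = 0.121).

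In the knock-in model, Kcna3 was at 17.2, 17.4 and 18.4 CPM in pre-leukemic marrow, 3.91 and 2.00 in Dnmt3a f/+ and 4.13 in Dnmt3a f/f leukemia. It fell by 2.57 on the log2 scale in Dnmt3a f/+ (SE 0.60, edgeR adjusted p = 0.0307). The call was lost when any pre-leukemic library or Dnmt3a f/+ replicate 2 was left out (adjusted p of 0.0830 to 0.157). The double-positive T marker sum was 214 to 279 CPM in pre-leukemic marrow and 6.87 to 63.2 in Dnmt3a f/+. In pre-leukemic marrow it was mostly Dntt, at 272, 221 and 202 CPM, against 46.9 and 0.93 in Dnmt3a f/+. Of the 8 markers, 5 had a positive log2 fold change there and 3 a negative one. In edgeR 3 passed as higher and 0 as lower, beside 3.43% and 1.57% of all genes. The part of T cells in the Kcna3 level was not tested. Kcng1, another silent Kv2 modifier, was at 18.8, 6.98 and 9.11 CPM in pre-leukemic marrow and 0.32 and 0.72 in Dnmt3a f/+ (-4.47 ± 1.18, edgeR adjusted p = 0.0686). Kcnq1ot1, also picked out because of its values, stood at 142, 313 and 66.1 CPM in pre-leukemic marrow and 21.9 and 45.4 in Dnmt3a f/+ (-2.37 ± 0.76, edgeR adjusted p = 0.0821).

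The 2 Dnmt3a f/+ leukemias carried different channels. Kcnk5 was at 102 CPM in replicate 1 and 6.01 in replicate 2, beside 48.0, 75.2 and 34.9 in pre-leukemic marrow and 4.02 in the Dnmt3a f/f leukemia. Kcnj11, the Kir6.2 pore, was at 17.5 and 0.79 CPM in the same replicates. Kcnj2, the Kir2.1 inward rectifier, ran the other way at 1.15 and 24.5 CPM, with 19.7 in Dnmt3a f/f and 3.02 to 4.17 in pre-leukemic marrow. Cacna1d was at 3.27 and 30.8 CPM, Kcnip3 at 11.3 and 46.2, Kcnk6 at 5.58 and 32.3 and Cacnb2 at 29.8 and 4.44. These 7 genes were picked because they differed between the replicates. The granulocyte and monocyte sum was 2286 CPM in replicate 1, 10929 in replicate 2 and 9075 in Dnmt3a f/f; its part was not tested. Across members, log2(CPM + 1) correlated at 0.784 between these replicates, the lowest of the 15 replicate pairs (genes are not independent).

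Other genes of ion flux and calcium signalling were read from the same fit, from lists of store-operated entry, pumps, other channels and calcineurin-NFAT. For these genes no alternative was examined, so how far their calls depend on single libraries or the method is not known. In KO-ITD against KO-GFP, 2 of 11 store-operated and release genes rose (Ryr1 and Orai3) and 3 fell (Stim1, Orai2 and Itpr1). The calcium sensor Stim1 went from a mean of 167 to 78.3 CPM (-1.09 ± 0.20, edgeR adjusted p = 0.00526), Orai2 from 199 to 81.4 and the release channel Itpr1 from 332 to 144. Orai3 went from 7.41 to 25.8 CPM (1.80 ± 0.30, edgeR adjusted p = 0.00326). Of 20 calcineurin-NFAT genes, 3 rose and 3 fell, among the latter the transcription factors Nfatc3 (-2.10 ± 0.26, edgeR adjusted p = 0.000574) and Nfat5 (-2.06 ± 0.37, edgeR adjusted p = 0.00481). Of 16 pumps and exchangers tested, 1 rose, the muscle calcium pump Atp2a1, and 3 fell; of 28 other channels, 0 rose and 5 fell, among them Ano6 and Lrrc8c. These shares stand beside 19.6% of all genes. With intact Dnmt3a, Ryr1 rose and Ano6 and Nfatc3 fell, where 2.24% of all genes passed. Between the leukemias Atp2a1 rose in KO-ITD (5.35 ± 0.99, edgeR adjusted p = 0.0324), where 0.49% of all genes passed. The muscle marker sum was 4.33 to 55.1 CPM in KO-ITD and 0.675 to 1.87 in WT-ITD, and its part in the Atp2a1 level was not tested. In Dnmt3a f/+ leukemia the sodium pump subunit Atp1b2 (1 of 16 pumps and exchangers) and the cation channel Trpc6 (1 of 28 other channels) fell. There 1.57% of all genes passed as lower.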

How the data were processed

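RNA of 17 libraries (19 GEO samples, since the technical runs of each WT-GFP library share 1 deposited column) was analysed from the authors' deposited table of estimated counts per gene, which are not scaled for depth; 98.3% of its nonzero values were whole within 0.001 and all were rounded. Per the submitters' processing notes, TopHat2 2.0.10 with build mm9, Cufflinks 2.1.1 (no version for the later records) and Cuffdiff 2.1.1 or 2.2.1 were used; the sources used here give neither the counting step nor its use of strand. Groups follow the titles. In R 4.3.3, edgeR 4.0.16 (filterByExpr, TMM, 1 quasi-likelihood fit over all libraries with group means) tested 6 contrasts, two-sided, with Benjamini-Hochberg adjustment over 15508 genes. CPM uses TMM-scaled library sizes; SE came from the F statistic. Ratios with 1 to 3 counts on the low side carry exact 95% intervals that cover counting error only. Alternatives used DESeq2 1.42.0, limma 3.58.1 and those listed at the end. The test was also run on simulated data with large changes planted in well-counted genes only, which does not cover members with low counts.

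Named members are those called with at least 1 CPM, the 10 highest per kilobase in each group, and 14 blood-cell channels; some members are not reported here. The members and lists were chosen with earlier results of these data known. Muscle, erythroid, megakaryocyte, endothelial, B cell and NK marker lists were also computed: their highest sums in any KO-ITD library were 55.1, 796, 130, 262, 154 and 3142 CPM, against 1.98, 35.0, 2.19, 186, 105 and 92.4 in any GFP library. The highest NK sum was mostly Gzma (3037 CPM); Klrb1c was lower in KO-ITD (0.06 to 0.96 CPM) than in GFP libraries (3.13 to 11.6 CPM). Promoters are RefSeq's, on GRCm38.p6.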

Additional observations from a re-analysis of the deposited data

Results flagged for a closer look

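In 4 of the 23 named members that could be tested for a single outlying library among the 4 KO-ITD leukemias, the gap between the extreme library and the next exceeded Dixon's 95% critical value; chance gives about 1 in 20, and 14.2% of all 12640 genes with a KO-ITD mean of at least 1 CPM exceeded it. Replicate 2 stood apart for Kcng3 (6.32 CPM). Replicate 4 stood apart for Kcnip3 (23.3 CPM), Kcnk6 (32 CPM) and Kcnq1 (20.5 CPM).

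For 5 named members the libraries of groups with deleted and intact Dnmt3a did not overlap, in opposite directions in thymocytes and in leukemias; 6 of the 82 tested members (7.32%) and 1.7% of all genes tested met this. Between deleted and intact Dnmt3a, the log2 fold change in thymocytes and then in leukemias was 0.70 and -1.57 for Cacna1a, 1.29 and -6.78 for Cacna1e, 0.89 and -1.32 for Cacng4, 0.49 and -1.11 for Kcna2 and 0.42 and -0.76 for Kcnk5. The test of that difference in edgeR, over all genes, passed for none of them; in DESeq2 it passed for Cacna1a (adjusted p = 0.037) and Cacna1e (adjusted p = 8.35e-05), and without WT-ITD replicate 3 edgeR passed Cacna1e (adjusted p = 0.00268).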

How the results depend on the processing

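Of 17 calls of a named member in a comparison, 4 held under every alternative run: Cacng4 in both leukemia comparisons, and Cacnb1 and Cacna1e in KO-ITD against KO-GFP. Over 532 fold changes of named members under alternatives, 421 kept direction and call, 63 lost the call, 39 gained it and 9 changed sign.

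The count of called members in WT-ITD against WT-GFP, 3, became 9 in DESeq2, 6 in limma voom, 7 with only the groups compared, 9 with Cuffdiff 2.1.1 libraries only and 1 to 3 with a library left out. In KO-ITD against KO-GFP the count of 13 became 6 with only the groups compared and 3 to 15 with a library left out (3 without KO-GFP replicate 1, 6 without KO-GFP replicate 2). In KO-ITD against WT-ITD the count of 1 became 9 in DESeq2, 2 in limma voom, 0 with only the groups compared, 0 with thymus libraries only, 3 with Cuffdiff 2.1.1 libraries only and 0 to 2 with a library left out. In Dnmt3a f/+ against pre-leukemic marrow the count of 1 became 5 in DESeq2, 2 in limma voom, 0 with only the groups compared, 5 with all 3 knock-in leukemias as 1 group and 0 to 6 with a library left out. The dependence of the leukemia difference on Dnmt3a, 0, became 3 in DESeq2, and 1 without WT-ITD replicate 3 (0 to 1 with a library left out). The cause was not tested.

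Whether replicate numbers pair the samples was not settled. Of 33 same-numbered pairs of libraries, 3 had deviations correlated above 0.1 (-0.29 to 0.37). These pairs also set retroviral against knock-in libraries, and a group of 2 libraries gives mirror-image deviations. Same-numbered pairs of WT-ITD and KO-ITD gave 0.16, 0.37 and 0.08, where differently numbered ones ranged from -0.43 to 0.36. With a replicate block the counts were 5, 13, 0, 0, 2 and 0 in the order WT-ITD and KO-ITD against GFP, KO-ITD against WT-ITD, KO-GFP against WT-GFP, Dnmt3a f/+ and the dependence on Dnmt3a.

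Thymus-only and Cuffdiff 2.1.1-only fits were not run for the knock-in model, whose libraries are all marrow and Cuffdiff 2.2.1. Expressed members at a threshold of 2 CPM numbered 22 in pre-leukemic marrow and 18 in Dnmt3a f/f. Requiring 1 CPM in every library gave 22 in KO-ITD, and 0.5 CPM per kilobase gave 22 in pre-leukemic marrow. Leaving out a library, chosen after seeing the data, gave 36 to 44 in KO-ITD.

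In Dnmt3a f/+ against pre-leukemic marrow, Kcnk5 (0.04) changed sign with DESeq2 size factors (-0.0078), in DESeq2 (-0.0099), limma voom (-0.79), the replicate block (-0.14), all knock-in leukemias as 1 group (-0.51) and without pre-leukemic replicate 1 (-0.019) or 3 (-0.18) or Dnmt3a f/+ replicate 1 (-3.13, edgeR adjusted p = 0.0304). Cacnb2 (-0.44) became 0.36 without Dnmt3a f/+ replicate 2. Over all left-out libraries Kcnk5 ranged from -3.13 to 0.96 and Cacnb2 from -2.38 to 0.36. Groups of 1 to 4 libraries and the depths of KO-ITD replicates 1, 3 and 4 and pre-leukemic replicates 1 and 2 (4933890 to 8597919 counts) limit low genes.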

Other observations

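The deposited transcript table splits each gene's estimated count between models. For Cacnb3 the share given to NM_007581 (from 98465195 to 98474961 on chromosome 15, plus strand, mm9) rather than NM_001044741, which starts at 98462651, was 98.4% and 14% in the WT-GFP libraries and 96.2% and 14.1% in the KO-GFP libraries. In WT-ITD it was at least 99.9% in replicates 1 and 2 and 27.1% in replicate 3, and in KO-ITD 84.3% in replicate 3 and at least 99.9% in the others. Libraries of 1 group thus differ by most of the gene's count, at 818 to 1606 counts per GFP library, and group means of such shares describe no library.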
